A study of Mus musculus with 18 samples.

Results

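CTCF binding was compared between wild-type (WT) mouse embryonic stem cells and a sextuple knockout line (SKO) that lacks Dnmt1, Dnmt3a, Dnmt3b, Tet1, Tet2 and Tet3, by chromatin immunoprecipitation and sequencing. Merging the WT and SKO peak lists gave 74818 regions, out of 78072 when the list of the third genotype, a Tet1, Tet2 and Tet3 triple knockout (TKO), was merged as well. The WT list held 71075 regions and the SKO list 59372, after deposited rows of the same interval were joined into 1 region. A region was called shared where 1 bp or more of it lay in a region of the other list, lost where a WT region met no SKO region, and gained where an SKO region met no WT region.

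Each genotype had 3 ChIP and 3 input samples, and the authors called 1 list per genotype on the pooled replicates. There is thus 1 value per site and genotype, no spread between replicates and no test; the intervals below cover counting error only. All cells carried the label mESC and were grown in serum replacement medium with LIF, typically on gelatin with irradiated mouse embryonic fibroblasts, so that some chromatin may come from feeder cells. The labels do not say how the alleles were made, how many clones each genotype stands for, or whether the replicates were separate cultures, and differences between lines cannot be told apart from effects of the deletions. Peak lists do not show the deletions, so the genotypes were not checked here.

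CTCF is a zinc finger protein that halts cohesin as it extrudes chromatin loops, and it marks loop anchors and domain borders. DNMT1 copies CpG methylation onto new DNA strands, DNMT3A and DNMT3B set it anew, and the TET proteins oxidise it as a step towards its removal. CTCF is known to bind poorly to some motifs when a CpG inside them is methylated, with the H19 imprinting control region as the classical case.

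Sequences from promoter windows that hold the summit of a lost, gained or shifted site are shown first, to give the motif and its CpGs; a stretch can lie beside its region, as at Hlcs. RefSeq promoter windows of GRCm38.p6, the assembly behind mm10, run from 250 bases before to 50 bases after a gene start, and 32585 of them were searched on both strands for the 12-base CTCF core motif. The motif stood in 320 windows (0.982%). Among the windows under a shared WT summit it stood in 230 of 1517 (15.2%, 95% Wilson interval 13.4% to 17.1%), under a lost WT summit in 11 of 287 (3.83%, 2.15% to 6.73%) and under a gained SKO summit in 5 of 230 (2.17%, 0.932% to 4.99%). The first stretches are those with the motif at lost WT summits of highest fold, in 5′ to 3′ direction on the strand of the gene, with the motif or its reverse complement in capitals. These and the next 3 sets were picked for holding a motif, after values were seen.
Gm46218 (chr10:29313510-29313569, minus strand): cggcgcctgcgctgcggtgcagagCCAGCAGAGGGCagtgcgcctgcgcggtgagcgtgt
Defb28 (chr2:152518140-152518199, plus strand): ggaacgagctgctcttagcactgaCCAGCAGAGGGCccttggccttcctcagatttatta
Slain2 (chr5:72914344-72914373, plus strand): ccgggctggCCGGCAGGGGGCggagggacg

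The lost site at Gm46218 had a WT fold enrichment of 7.87 (chr10:29313532-29313763), that at Defb28, a beta-defensin gene, 6.53 (chr2:152518004-152518316), and that at Slain2, which promotes microtubule growth, 6.38 (chr5:72913940-72914498). The motif centres lay 93.5, 3.5 and 6.5 bp from these summits. A motif is counted as having a CpG where, read on the motif's strand, its second base and the base after it form one, or its last base and the base after it. The first 2 motifs had none and that at Slain2 had one. The gained summits of highest fold with a motif in their window were the following, each with a CpG by this count.
1700122E12Rik (chr8:84847083-84847142, plus strand): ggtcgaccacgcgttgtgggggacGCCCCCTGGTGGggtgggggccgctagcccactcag
Hlcs (chr16:94313564-94313623, minus strand): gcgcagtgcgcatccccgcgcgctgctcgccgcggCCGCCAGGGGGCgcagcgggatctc
Dpy30 (chr17:74316503-74316562, minus strand): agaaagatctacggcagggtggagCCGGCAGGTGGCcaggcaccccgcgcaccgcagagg

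The gained site at 1700122E12Rik had an SKO fold of 6.07 (chr8:84846843-84847312), on a high local background of 14.6 fragments. The gained site at Hlcs, the ligase that attaches biotin to carboxylases, had a fold of 4.67, and that at Dpy30, a subunit of histone H3K4 methyltransferase complexes, one of 3.604. The motif centres at 1700122E12Rik, Hlcs and Dpy30 lay 25.5, 176.5 and 58.5 bp from the summit. The next stretches lie at shared sites that were higher in SKO.
Nabp2 (chr10:128409998-128410057, minus strand): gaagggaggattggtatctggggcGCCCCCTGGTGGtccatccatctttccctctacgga
Faap100 (chr11:120378837-120378896, minus strand): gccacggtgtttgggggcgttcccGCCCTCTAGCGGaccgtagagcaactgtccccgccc

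Nabp2 encodes a single-stranded DNA-binding protein, and its site had folds of 22.0 in WT and 46.5 in SKO on 190 and 203 fragments, a pileup ratio of 1.37 (1.12 to 1.68) at equal genome-wide background. Faap100 encodes a subunit of the Fanconi anaemia core complex, and its site had folds of 6.26 and 13.2 on 45 and 43 fragments (1.23, 0.788 to 1.91). Shared sites that were lower in SKO included the following.
Wdr41 (chr13:94976284-94976343, plus strand): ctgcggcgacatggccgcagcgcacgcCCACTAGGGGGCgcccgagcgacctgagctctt
Itga8 (chr2:12301987-12302046, minus strand): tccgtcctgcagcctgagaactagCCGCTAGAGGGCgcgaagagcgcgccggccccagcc
Mgat5b (chr11:116918769-116918828, plus strand): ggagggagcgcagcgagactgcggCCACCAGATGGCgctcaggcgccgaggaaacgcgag

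Wdr41 encodes a partner of C9orf72, and its site had folds of 19.3 in WT and 4.90 in SKO on 54 and 30 fragments (0.713, 0.440 to 1.13). Itga8 encodes an integrin subunit, with folds of 25.4 and 9.10 on 69 and 34 fragments (0.632, 0.407 to 0.967), and Mgat5b a glycosyltransferase, with folds of 9.27 and 4.16 on 25 and 17 fragments (0.873, 0.442 to 1.68). The counting interval of the pileup ratio thus held 1 at Faap100, Wdr41 and Mgat5b. For contrast, the strongest lost and the strongest gained site with a summit in a promoter window held no match to the motif anywhere in the 300 bases. No match says only that these letters are not in the window.
Ttll4 (chr1:74661642-74661701, plus strand): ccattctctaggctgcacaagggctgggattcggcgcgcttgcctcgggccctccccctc
Zglp1 (chr9:21067246-21067305, minus strand): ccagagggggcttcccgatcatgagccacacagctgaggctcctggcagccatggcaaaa

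The lost site at Ttll4, a tubulin polyglutamylase gene, had a WT fold of 15.7 (chr1:74661643-74662131). The gained site lay at Zglp1, which encodes a GATA-like zinc finger protein of germ cells (chr9:21067144-21067427).

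Most of the WT list was shared. In SKO 15571 WT regions were lost (21.9%), and 3911 SKO regions were gained (6.59%). The shared regions numbered 55504 in the WT list and 55461 in the SKO list, since 125 WT regions overlapped 2 SKO regions and 168 SKO regions overlapped 2 WT regions. The pairs that met 1-to-1 numbered 55045 and were used for all level shifts. Within such a pair the summits lay a median of 11 bp apart, and 98.7% lay within 100 bp. The median width was 392 bp in WT and 381 bp in SKO, and 55.4% of the pairs were narrower in SKO.

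Each region carries a fold enrichment, which is the ratio of the ChIP fragment pileup at the summit to the local background, with 1 added to each. Pileup and background were recovered from the fold and the −log10 p. The genome-wide background, the lowest one in a list, was 1.76 fragments in WT and 1.37 in SKO, so the SKO list was 0.779 times as deep on this scale. Per-sample read totals are not analysed here.

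Lost and gained regions were weak and narrow members of their lists. Lost regions had a median fold of 5.11 and a median pileup of 17 fragments, against 12.2 and 53 in shared WT regions, and they were 254 bp wide against 392 bp. Gained regions had a median fold of 4.65, a pileup of 13 and a width of 246 bp, against 11.1, 38 and 382 bp in shared SKO regions. Regions with several summits were lost in 5.80% of cases (4.84% to 6.93%) and those with 1 summit in 22.4% (22.0% to 22.7%).

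The share lost decreased along the whole range of WT strength. By deciles of −log10 q it was 62.1% in the second, 43.4% in the third and 24.6% in the fourth, and 2.11% in the sixth. From the seventh decile on it was under 1%, with 23, 7, 1 and 1 regions lost in turn. Gained regions ended sooner, at 37.5% of the weakest SKO decile, 17.6% of the second, 8.12% of the third and 2.02% of the fourth, with 0 of 5937 in the ninth and 0 of 5938 in the tenth. The part of the lower SKO depth in this count was not tested beyond a scaling of the values. With WT pileups and backgrounds scaled to the SKO background, 952 WT regions would not pass the lowest −log10 p of the SKO list, and 793 of these were lost. The remaining 14778 lost regions (94.9%) would pass at the scaled values. This scaling takes no account of counting noise.

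**Figure D1:**
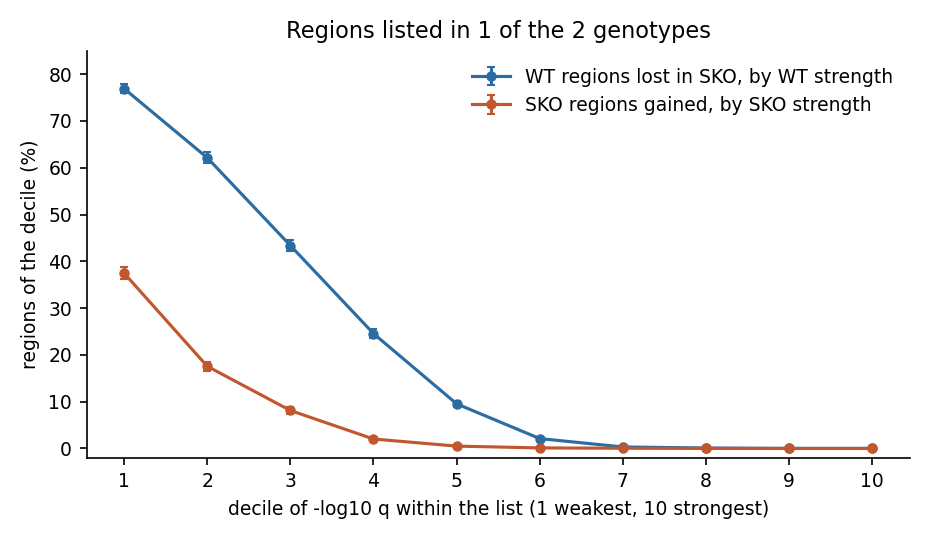
Share of WT regions lost in SKO (blue, by decile of WT strength) and of SKO regions gained (orange, by decile of SKO strength), in percent, with 95% Wilson intervals that cover counting error only. Loss decreases from 76.9% in the weakest decile to 0.0141% in the strongest, and gain from 37.5% to 0.

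In all 435 lost regions (2.80%) and 31 gained regions (0.795%) had a fold of at least 10 on the autosomes and X. Of the 12 lost regions of highest fold, 10 had a TKO region over them. Those furthest down this ranking included a site inside Map2k6, a kinase that activates p38 (chr11:110510215-110510576), with a WT fold of 17.1 on 46 fragments and a TKO fold of 7.27. A site inside Plscr5, a phospholipid scramblase gene (chr9:92191312-92191710), had a WT fold of 16.6 on 64 fragments and a TKO fold of 6.23. A site 20.4 kb from Otx1, a homeobox gene of forebrain development (chr11:21974098-21974496), had a WT fold of 15.9 on 57 fragments and a TKO fold of 9.95. The last of the 12 was the site at Ttll4 shown above, with 56 fragments and a TKO fold of 13.3; the next lost region outside the 12 had a WT fold of 15.4. In these 4 the TKO fold lay below the WT fold, which the ranking by WT fold favours.

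Of the 12 gained regions of highest fold, 9 had a TKO region over them, 6 lay over 100 kb from a protein-coding gene and 9 stood on the genome-wide background. A site inside Bpnt2, a nucleotide phosphatase of the Golgi (chr4:4771576-4771895), had an SKO fold of 12.2 on 28 fragments and a TKO fold of 5.30. A site inside Speg, a kinase of striated muscle (chr1:75381330-75381905), had an SKO fold of 11.5 on 37 fragments and a TKO fold of 3.31. The site at chr11:12756405-12756778, with an SKO fold of 12.6 on 33 fragments, had no TKO region. The last of the 12 and the next outside them both had a fold of 11.4.

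Shared sites as a whole were slightly lower in SKO. The median log2 ratio of fold, SKO over WT, was -0.11 (quartiles -0.46 and 0.25), a ratio of 0.928, and 58.3% of the pairs had the lower fold in SKO. The 1 added to pileup and background weighs more in the less deep SKO list, which lowers its folds. The part of this in the shift and in the counts below was not tested. The pileup, divided by the genome-wide background of its list, had a median log2 ratio of -0.09 (-0.36 and 0.16), and the local background, divided in the same way, -0.08 (-0.45 and 0.25). A fold at least 1.5 times higher in SKO was found at 5252 sites (9.54%) and one at least 1.5 times higher in WT at 10091 sites (18.3%). With ratios centred on their own median the split was 7411 higher and 7499 lower, a balance that centring brings about nearly by construction. Past 2-fold there were 999 higher and 2772 lower sites.

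**Figure D2:**
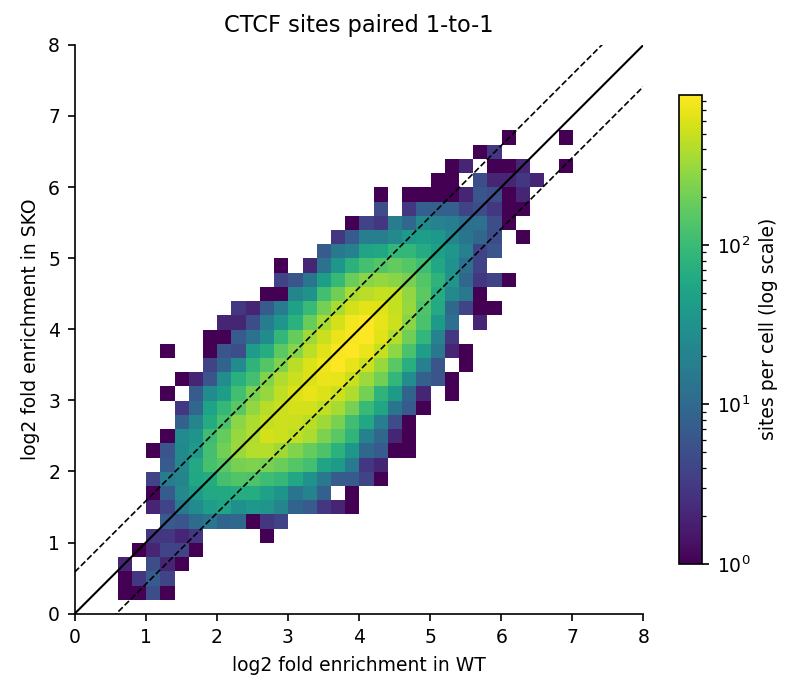
Log2 fold enrichment in WT (horizontal) and in SKO (vertical) at the 55045 sites paired 1-to-1; colour gives the number of sites per cell on a log scale, the solid line marks equal folds and the dashed lines 1.5-fold. Sites lie along the diagonal, with 10091 below the lower dashed line and 5252 above the upper one.

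The local background moved with these calls, which is partly built in, since it is the denominator of fold. At the sites called higher the median log2 ratio was 0.30 for the pileup and -0.79 for the background, and at those called lower it was -0.49 for the pileup and 0.43 for the background. Both fold and pileup passed 1.5 at 1337 of the higher sites (25.5%) and 4012 of the lower sites (39.8%). By pileup alone, 2583 sites were higher and 6422 lower. The exact 95% interval of the pileup ratio, conditional on the sum of the 2 pileups, held 1 at 88.2% of all pairs; it lay above 1 at 1820 sites (3.31%) and below 1 at 4683 (8.51%). Among the sites called higher it lay above 1 at 911 (17.3%) and among those called lower it lay below 1 at 2641 (26.2%). The part of the input libraries in the fold calls was not tested.

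The shift varied with strength, in a way that depended on how strength was ranked. By deciles of the mean of the log folds, the median log2 fold ratio was -0.11 in the weakest, -0.21 in the third and 0.01 in the strongest. In the third decile 8.23% of sites were higher and 25.1% lower, and in the strongest 12.3% were higher and 10.6% lower. The median log2 pileup ratio followed the same course, from -0.06 through -0.17 to -0.02, while the background went from -0.01 in the weakest to -0.15 in the strongest decile. Pairs in the weakest deciles had to pass the threshold in both lists, which limits how far they can differ. Ranked by WT −log10 q instead, the median log2 fold ratio was 0.35 in the weakest and -0.15 in the strongest WT decile. Ranked by SKO −log10 q, it was -0.47 in the weakest and 0.14 in the strongest SKO decile. Ranking by either list alone favours these opposite courses, so no direction with strength is read from them.

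**Figure D3:**
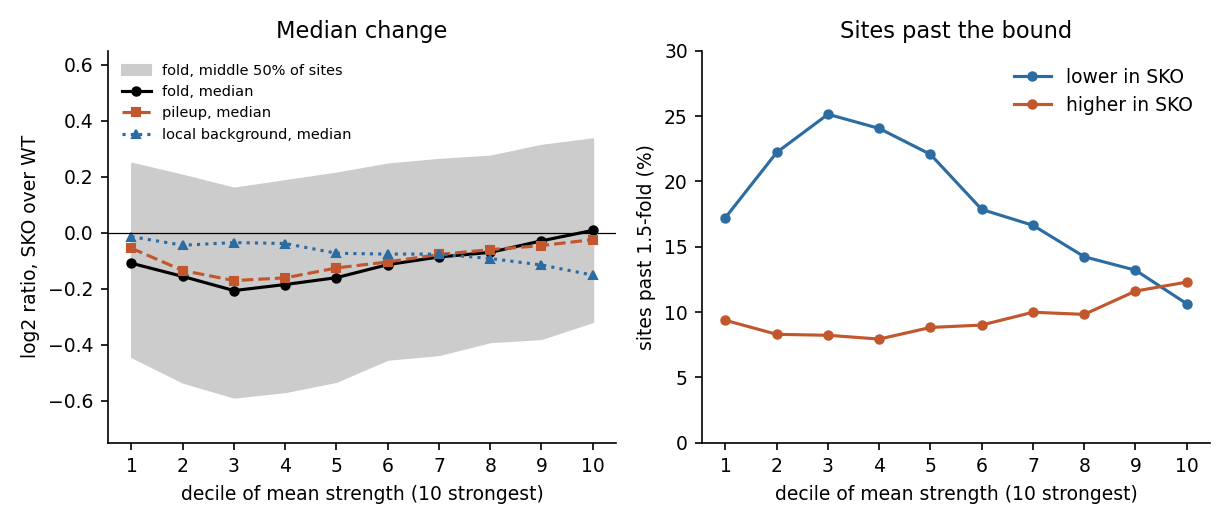
Left, median log2 ratio (SKO over WT) of fold, pileup and local background by decile of mean strength, with the grey band holding the middle 50% of fold ratios; right, percent of sites past 1.5-fold in each direction. The fold median is lowest in the third decile, at -0.21, and reaches 0.01 in the tenth, where higher sites (12.3%) outnumber lower ones (10.6%).

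The largest shifts in fold were named among sites whose larger pileup was at least 40 fragments. The 10 largest rises in the ratio ran from 3.41-fold to 4.07-fold, with the next site at 3.35-fold. All 10 had a lower local background in SKO, and in 9 the interval of the pileup ratio lay above 1. Fold is built from pileup and background, so ranking by it favours both features. Intervals of sites named by rank are not adjusted for that choice. A site 70.6 kb from Rb1cc1, a gene of autophagy initiation (chr1:6143974-6144173), had a fold of 4.47 in WT, 18.2 in SKO and 15.3 in TKO. Its pileup was 20 fragments in WT and 42 in SKO, which gives a ratio of 2.70 (1.55 to 4.85) at equal genome-wide background. The site at chr2:107879750-107880001, over 100 kb from a gene, had a fold of 4.12 in WT and 16.7 in SKO, and 14 and 49 fragments, a ratio of 4.49 (2.44 to 8.81).

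A site 16.5 kb from Mrps30, a mitochondrial ribosomal protein gene (chr13:118403503-118403897), had a fold of 7.41 in WT and 26.6 in SKO, on 26 and 62 fragments (ratio 3.06, 1.91 to 5.04). Inside Ankrd28, a regulatory subunit of protein phosphatase 6 (chr14:31794542-31794845), the fold was 5.25 in WT and 18.5 in SKO, on 32 and 54 fragments (2.17, 1.37 to 3.47). A site inside Filip1, which encodes a filamin-binding protein (chr9:79806709-79807059), had folds of 5.04 and 18.6 on 36 and 49 fragments (1.75, 1.11 to 2.77). At the site 5.27 kb from AI661453 (chr17:47475669-47476100) the fold was 10.6 in WT and 36.7 in SKO. Yet the pileups there were 108 and 98 fragments (1.16, 0.877 to 1.55), and the local background was 9.25 in WT and 1.69 in SKO. In all 10 rises the TKO fold lay between the other folds, which the choice of extreme pairs favours.

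The 10 largest falls in the ratio ran from 4.43-fold to 5.44-fold, with the next site at 4.42-fold. Ranking by fold favours low pileups and high backgrounds in SKO here, and the intervals are not adjusted for it. In each of the 10 falls the interval of the pileup ratio lay below 1, and in 9 the local background was higher in SKO. The exception was a site inside Svil, which encodes the actin-binding protein supervillin. Its fold was 22.1 in WT, 4.65 in SKO and 7.10 in TKO, and its pileup 60 fragments in WT and 10 in SKO, a ratio of 0.214 (0.0976 to 0.421). A site at chr15:74180004-74180393, over 100 kb from a gene, had a fold of 17.5 in WT and 3.67 in SKO on 49 and 10 fragments (0.262, 0.118 to 0.523), with backgrounds of 1.85 and 2.00.

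Inside Fam228b (chr12:4768710-4769391) the fold was 15.0 in WT and 2.92 in SKO on 48 and 12 fragments (0.321, 0.155 to 0.613). Inside Abcb4, the transporter that carries phosphatidylcholine into bile (chr5:8952089-8952445), it was 19.5 and 3.95 on 70 and 24 fragments (0.440, 0.265 to 0.708). Inside Eif4g3, a translation initiation factor gene (chr4:138040571-138040995), it was 17.7 and 3.89 on 69 and 21 fragments (0.391, 0.228 to 0.644). A site 19.5 kb from Txn2, mitochondrial thioredoxin (chr15:77895364-77895742), had folds of 17.8 and 3.90 on 48 and 12 fragments (0.321, 0.155 to 0.613). Its TKO fold was 4.82. In all 10 falls the TKO fold lay between the other folds, which the choice of extreme pairs favours.

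Ranking by pileup, which was chosen after values were seen, brought up sites that the fold shows less. Inside Tat, the tyrosine aminotransferase gene (chr8:109989177-109989559), the pileup was 108 fragments in WT and 17 in SKO, a ratio of 0.202 (0.114 to 0.339). The fold there was 12.97 in WT and 7.602 in SKO, since the background was 7.40 in WT and 1.37 in SKO. Inside Ncapd3, a condensin II subunit gene (chr9:27064466-27064822), the pileups were 73 and 14 fragments (0.246, 0.128 to 0.440), and near Cox20, an assembly factor of cytochrome oxidase (chr1:178299284-178299677), 62 and 12 (0.248, 0.122 to 0.465). The highest pileup ratios included sites at the start of chromosome 9 with very high backgrounds. The site at chr9:3007201-3007645 had 224 fragments in WT and 574 in SKO on backgrounds of 100.2 and 280.8, and a fold of 2.22 and 2.04.

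Lost and gained regions lay differently in relation to genes. A gene end here is the interval within 1 kb of either boundary of a protein-coding gene. Gene ends held 7.40% of lost WT regions (6.998% to 7.82%) and 8.86% of shared WT regions, but 16.9% of gained SKO regions (15.8% to 18.1%) and 8.87% of shared SKO regions. Within deciles of strength the order was kept where calls were many. In the weakest WT decile 67.7% of gene end regions and 78.1% of the others were lost, and in the third 34.7% and 44.0%. In the weakest SKO decile 52.2% of gene end regions and 34.9% of the others were gained, and in the third 14.4% and 7.603%. Shared sites at gene ends had a median log2 fold ratio of -0.06, with 10.8% higher and 15.5% lower, beside -0.11, 9.54% and 18.3% over all sites.

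Regions far from genes and far from other CTCF regions were lost more often. Over 100 kb from a protein-coding gene 28.3% were lost (27.3% to 29.4%), inside genes 22.3%, between genes 20.4% and at gene ends 18.98%. The median WT folds of these regions were 8.71, 9.73, 10.9 and 9.79 in that order, and strength was not matched. Where the next WT summit lay over 50 kb away 30.2% were lost (28.97% to 31.5%), and where it lay within 5 kb 19.03% (18.6% to 19.5%). The regions with a distant neighbour were also weaker, with a median fold of 8.15 against 10.6. Of the lost regions, 8831 (56.9%) stood between kept ones. As 21.9% of all WT regions were lost, kept neighbours were common for any region. Whether losses were more isolated or more clustered than a random scatter was not tested. In 59 places at least 5 neighbouring WT regions were lost in a row, and the longest runs held 7. One of these spanned 296 kb over the atypical cadherin gene Fat1 (chr8:44639511-44935414), with a median fold of 6.12. Few calls had a summit of the other list close by: 671 lost regions (4.31%) lay within 1 kb of an SKO summit and 370 gained regions (9.46%) within 1 kb of a WT summit.

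Chromosomes differed little in fold and more in pileup. The share lost ran from 20.2% on chromosome 5 to 25.8% on chromosome 14 among the autosomes, and was 24.9% on the X. The share gained ran from 5.21% on chromosome 13 to 7.91% on chromosome 1, and was 9.26% on the X (7.95% to 10.8%). The median log2 fold ratio of the autosomes and X lay between -0.15 on chromosomes 14 and 19 and -0.06 on the X. On chromosome 14 the median log2 pileup ratio was -0.31 and that of the background -0.30, beside -0.09 and -0.08 over all sites. Chromosome 8 followed with -0.18 and -0.18, while chromosome 12 and the X had pileup medians of 0.03 and 0.09, the only ones above 0 among the autosomes and X. An unplaced contig, JH584304, stood apart with a median log2 ratio of 1.37 in pileup, 2.02 in background and -0.67 in fold over 25 sites.

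In windows of 10 Mb the share lost had a median of 22.4% over 270 windows with at least 30 WT regions (quartiles 19.8% and 25.8%). It was highest in chr14:90000001-100000000 (39 of 98, 39.8%), chrX:10000001-20000000 (39 of 99, 39.4%) and chr14:80000001-90000000 (33 of 84, 39.3%). It was lowest in chr5:150000001-160000000 (13 of 106, 12.3%), chr1:50000001-60000000 (39 of 304, 12.8%) and chr12:110000001-120000000 (49 of 363, 13.5%). The windows with most loss also held weaker WT regions, with median folds of 7.67, 7.37 and 7.54, against 12.1, 10.2 and 11.1 in those with least.

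The median log2 fold ratio of a window was highest in chrX:110000001-120000000 (0.22, 39 sites), chr16:80000001-90000000 (0.14, 103 sites) and chr1:140000001-150000000 (0.13, 43 sites). It was lowest in chr17:10000001-20000000 (-0.38, 146 sites), chr16:1-10000000 (-0.38, 129 sites) and chr9:1-10000000 (-0.32, 84 sites). In chr16:1-10000000 the pileup median was -0.49 and 32.99% of WT regions were lost. In chr17:10000001-20000000 the pileup median was -0.31 with a background of -0.03. In chr9:1-10000000 the pileup median was 0.07, so the direction of that window flips with the scale.

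Ranked by pileup, after values were seen, chr14:60000001-70000000 was lowest at -0.55 (294 sites), with a background of -0.57. Relative to the median of its own list, WT was high there, by 0.42 in pileup and 0.39 in background on the log2 scale over the 280 sites in all 3 lists. SKO lay at -0.05 and -0.07 and TKO at 0.03 and 0.00. In the neighbouring chr14:70000001-80000000 the WT values were 0.40 and 0.39, the SKO values -0.05 and 0.02, and the TKO values -0.03 and 0.01. All 13 windows of chromosome 14 had a pileup median below 0, and 5 of them a background median below -0.3, as did 3 windows of chromosome 8 and 9 windows in all. The loss counts and level shifts of chromosome 14 stand beside this difference in background, whose part in them was not tested.

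**Figure D4:**
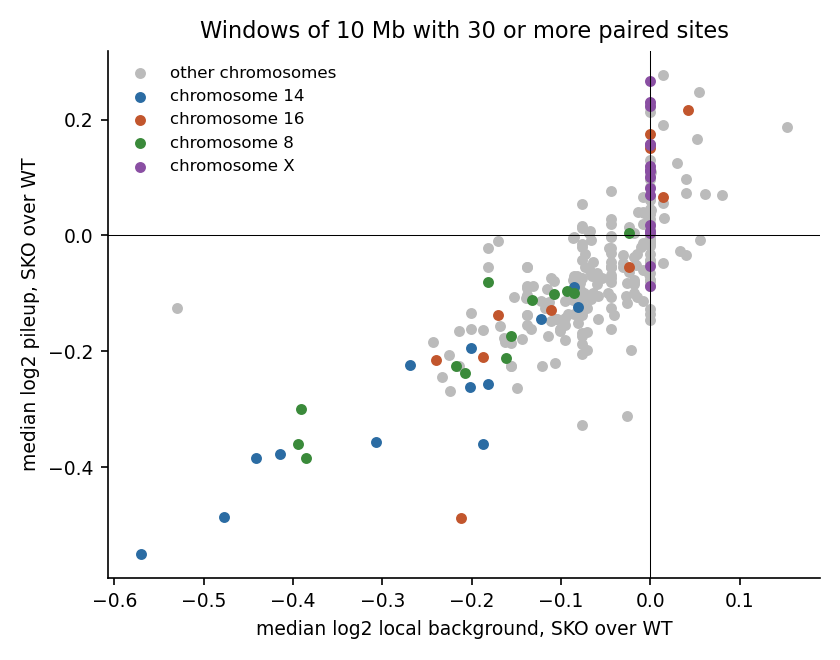
Median log2 ratio (SKO over WT) of local background (horizontal) and of pileup (vertical) at shared sites, 1 point per 10 Mb window with at least 30 sites, coloured for chromosomes 14, 16, 8 and X. Windows of chromosome 14 reach the lowest values of both, at -0.57 in background and -0.55 in pileup, while windows of the X lie at a background of 0.

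Gene lists were taken with 10 kb either side of each gene. Of the 15 lists, 13 had a median log2 fold ratio below 0, 13 a median pileup ratio below 0, and 12 both. More sites were lower than higher in 12 lists. Over all sites 9.54% were higher and 18.3% lower. Of all WT regions 21.9% were lost, and of all SKO regions 6.59% were gained. The counts by list carry no test.

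The X inactivation centre had the highest median, 0.30 in fold and 0.38 in pileup over 18 shared sites, with 2 higher and 2 lower. Of its 22 WT regions 4 were lost (18.2%). At Tsix, the antisense partner of Xist, whose gene overlaps it, 2 of 7 shared sites were higher and 0 lower. The strongest of the 7 had 58 fragments in WT and 75 in SKO, a pileup ratio of 1.66 (1.16 to 2.38). Its folds of 18.9 and 25.4 lay within 1.5-fold, so it was not among the 2 called higher. At the other 6 sites, with those 2 among them, the interval of the pileup ratio held 1. All 3 lost regions at Tsix were weak, with WT folds of 5.78, 2.81 and 3.26, and lay at Xist as well.

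Imprinted genes were split by the parent whose copy is methylated at the control region. With paternal methylation, 5 of 25 WT regions were lost (20%), 2 of them at the H19 control region. Those 2 had a median WT fold of 16.7. Of them, 1 had no TKO region, and the other had a TKO fold of 2.69 beside 15.8 in WT. The 20 shared sites had a median of -0.20 in fold and 0.13 in pileup, so the direction depends on the scale. At Meg3, a maternally expressed non-coding RNA, the strongest site had 243 fragments in WT and 214 in SKO on backgrounds of 9.52 and 4.66. Its fold was 23.2 in WT, 38.0 in SKO and 19.5 in TKO, and its pileup ratio 1.13 (0.936 to 1.36). At Rasgrf1, a paternally expressed exchange factor for Ras, all 5 WT regions were shared, with 1 higher and 1 lower.

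With maternal methylation, 19 of 88 WT regions were lost (21.6%) and 8 of 77 SKO regions gained (10.4%). The 69 shared sites had medians of -0.06 in fold and -0.11 in pileup, with 7 higher and 16 lower. At Airn, a long non-coding RNA that acts in cis on Igf2r, all 3 shared sites were lower in fold. The folds were 10.99, 29.9 and 12.7 in WT, 6.63, 16.9 and 6.34 in SKO, and 4.48, 13.98 and 12.1 in TKO. The pileups were 36, 116 and 34 fragments in WT and 20, 61 and 18 in SKO. At the strongest the pileup ratio was 0.675 (0.487 to 0.928), and at the other 2 the interval held 1. At Gnas, which encodes a stimulatory G protein subunit, 3 of 6 WT regions were lost, the strongest of them with a WT fold of 10.5 on 40 fragments and a TKO fold of 5.65.

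Naive and core pluripotency genes lost 22 of 79 WT regions (27.8%). Their 52 shared sites had a median of -0.17 in fold and in pileup, with 3 higher and 13 lower. At Nanog, a core pluripotency factor, 3 of 5 shared sites were lower. The first had folds of 14.2 in WT and 7.11 in SKO on 88 and 35 fragments, a pileup ratio of 0.510 (0.335 to 0.763). The strongest had folds of 34.6 and 20.0 on 171 and 132 fragments, a pileup ratio of 0.991 (0.783 to 1.25), with a background of 3.96 in WT and 5.66 in SKO. At Esrrb, an orphan nuclear receptor, 5 of 10 WT regions were lost, with WT folds from 2.55 to 6.39, and 1 SKO region was gained. None of its 3 paired sites passed 1.5-fold.

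Germline genes, of which several are known to be silenced by promoter methylation, lost 33 of 92 WT regions (35.9%) and gained 13 of 72 SKO regions (18.1%), beside 21.9% and 6.59% over all regions. Their WT regions were weaker, with a median fold of 7.68 against 10.0. At Tex15, a meiosis gene, 6 of 7 WT regions were lost with WT folds from 4.29 to 7.42. The only shared site had folds of 19.1 and 9.20 on 89 and 48 fragments, a pileup ratio of 0.692 (0.477 to 0.994). At Tex14, a gene of the intercellular bridges of germ cells, 4 of 17 WT regions were lost and 4 of 17 SKO regions gained.

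The NuRD complex couples histone deacetylation to nucleosome remodelling. Genes of its subunits, listed together with Sall1, Sall4 and Zmynd8, lost 18 of 94 WT regions (19.1%). Of their 76 shared sites, 4 were higher and 14 lower. All 5 shared sites at Hdac1, a deacetylase of the complex, were lower in fold. The folds were 14.4, 8.55, 21.4, 15.1 and 17.5 in WT and 6.61, 3.71, 11.5, 8.60 and 8.80 in SKO. The pileups were 48, 26, 145, 90 and 72 fragments in WT and 32, 11, 95, 62 and 40 in SKO, and in each of the 5 the interval of the pileup ratio held 1. The local background was higher in SKO at all 5, for example 2.40 in WT and 3.99 in SKO at the first.

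CTCF and cohesin genes lost 16 of 75 WT regions (21.3%) and gained 1 of 60 (1.67%). Of their 59 shared sites, 4 were higher and 11 lower. Genes of DNA methylation enzymes and readers lost 15 of 73 (20.5%), with 3 higher and 10 lower of 56. Retrovirus silencer genes lost 22 of 86 (25.6%), with 7 higher and 14 lower of 64. Their fold median was -0.12, but 0.09 over gene bodies alone. Atrx, a chromatin remodeller on the X, had 2 shared sites, both higher in fold (6.45 and 10.0 in WT, 11.4 and 18.4 in SKO), with pileups of 31 and 46 in WT and 26 and 48 in SKO. Both pileup intervals held 1. Genes of the 2-cell-like state held 8 WT regions in all, with a median of 0.19 over 6 shared sites that became -0.01 with 50 kb either side, and the site at Zscan4d had folds of 8.67 and 16.0 on 26 and 37 fragments (pileup ratio 1.83, 1.08 to 3.14).

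Primitive endoderm genes lost 9 of 52 WT regions (17.3%), with medians of -0.05 in fold and -0.26 in pileup over 43 shared sites. At Gata4, an endoderm transcription factor gene, which lies in chr14:60000001-70000000, the 6 shared sites had medians of 0.36 in fold and -0.36 in pileup, so the direction flips with the scale. At Lama1, a laminin chain of the basement membrane, 2 of 5 sites were higher and 2 lower. The strongest WT site there had folds of 28.3 in WT and 9.01 in SKO on 77 and 29 fragments, a pileup ratio of 0.483 (0.304 to 0.750). Epiblast, mesoderm and neural genes lost 5 of 44 WT regions (11.4%) and gained 0 of 39, beside 21.9% and 6.59% over all regions, with 4 higher and 5 lower of 36 shared sites; their fold median was -0.02, but 0.37 over gene bodies alone. At Cdx2, a trophectoderm and hindgut factor gene, all 4 WT regions were shared and 2 were lower. Feeder fibroblast markers lost 6 of 52 (11.5%), with 5 higher and 11 lower of 45. Their medians were -0.19 in fold and -0.01 in pileup. These markers are positions of genes and do not measure feeder cells.

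Hox cluster genes lost 5 of 34 WT regions (14.7%). Over 29 shared sites, 4 higher and 6 lower, the medians were -0.21 in fold (0.07 over gene bodies alone) and -0.01 in pileup. Around Hoxa3 0 of 5 shared sites were higher and 2 were lower; the largest change had folds of 14.9 and 5.44 on 73 and 28 fragments (pileup ratio 0.492, 0.306 to 0.771). Around Hoxd10 2 of 4 were higher and 1 was lower, and 1 of the higher ones had folds of 16.2 and 27.8 on 58 and 73 fragments (1.62, 1.13 to 2.32). Clustered protocadherins, adhesion molecules of neurons with CTCF sites at many of their promoters, lost 4 of 85 WT regions (4.71%), beside 21.9% over all regions, and had 8 higher and 16 lower of 74 shared sites. Their WT regions were stronger, with a median fold of 14.5 against 10.0. Overlapping gene models share these regions.

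**Figure D5:**
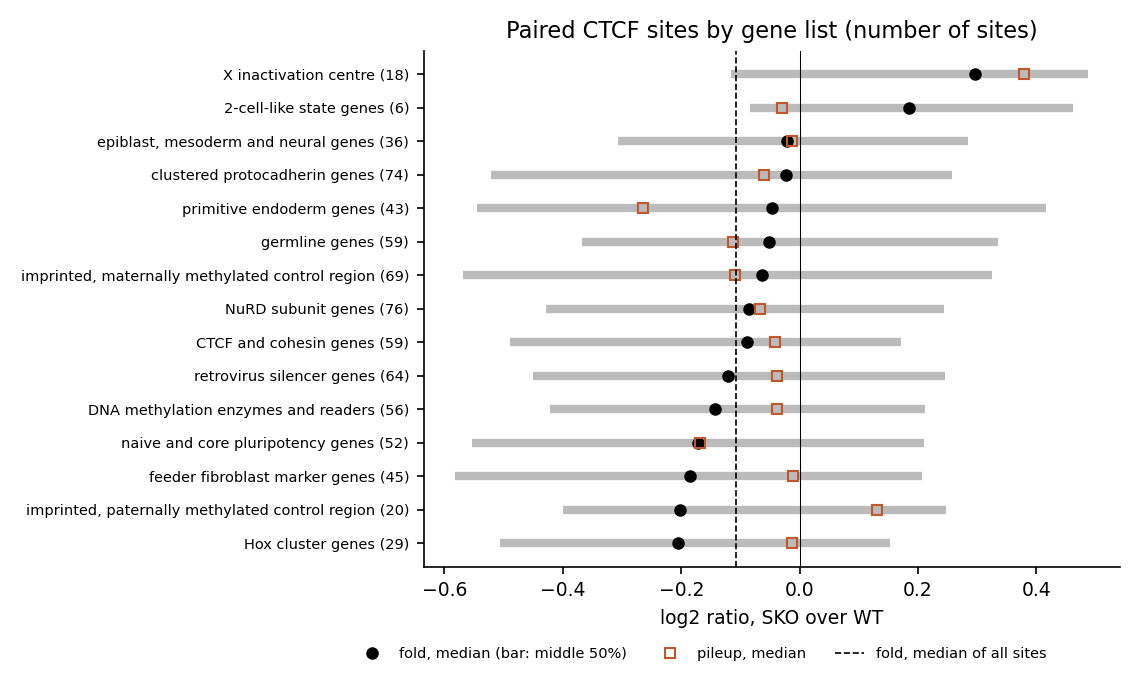
Median log2 ratio (SKO over WT) at shared sites by gene list, in fold (filled circles, with bars for the middle 50% of sites) and in pileup (open squares); the number of sites stands in parentheses and the dashed line marks the fold median of all sites, -0.11. The X inactivation centre has the highest medians, 0.30 and 0.38, and fold and pileup medians lie on opposite sides of 0 for the paternally methylated imprinted list and the 2-cell-like list.

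Counts by single gene went mostly to long genes, which hold more regions. The genes below were picked as extremes of such counts. Over all WT regions 21.9% were lost, and over all shared sites 9.54% were higher and 18.3% lower. At Cdh13, a cadherin of 1185 kb without a cytoplasmic domain, 11 of 30 shared sites were lower and 2 higher, with a median log2 fold ratio of -0.29. At Asic2, an acid-sensing channel gene of 1088 kb, 11 of 23 were lower and 1 higher, with a median of -0.56. There a site at chr11:81583175-81583588 had folds of 13.7 and 4.76 on 40 and 18 fragments (pileup ratio 0.578, 0.312 to 1.03). Fhit, a gene at a fragile site of 1612 kb, lost 11 of 16 WT regions and had 2 of 5 shared sites lower. Ryr1, the calcium release channel of skeletal muscle, had 5 of 12 sites higher and 1 lower, with a median of 0.14. Its strongest WT site by pileup had 146 and 121 fragments on backgrounds of 8.46 and 3.00, hence folds of 15.5 and 30.5 and a pileup ratio of 1.06 (0.829 to 1.36).

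At the genes of the deleted enzymes, 3 of 9 WT regions were lost at Tet1, 3 of 5 at Tet2 and 1 of 2 at Tet3. At Dnmt3b 2 of 4 were lost, and at Dnmt3a none of 7. These are few regions, and 21.9% of all WT regions were lost. The lost ones had median WT folds of 5.37 at Tet1, 6.59 at Tet2, 3.62 at Tet3 and 7.84 at Dnmt3b. The median was 5.11 over all lost regions and 10.0 over all WT regions. Most of the paired sites were within 1.5-fold of WT. All 6 WT regions at Dnmt1 were shared; the strongest, 0.091 kb from Eif3g (chr9:20898489-20898917), was lower, with folds of 39.95 and 26.4 on 134 and 78 fragments (pileup ratio 0.747, 0.558 to 0.995). At Dnmt3a 1 of 5 paired sites was lower (chr12:3852516-3852921), with folds of 9.65 and 6.01 on 52 and 17 fragments (0.420, 0.227 to 0.737). At Tet1 1 of 6 was higher and 1 lower, and the interval of the pileup ratio held 1 at both. At Tet2 1 of 2 was higher (chr3:133551942-133552413), with folds of 12.5 and 22.2 on 101 and 74 fragments (0.940, 0.687 to 1.28). The only shared site at Tet3, inside Bola3, was lower, with folds of 27.7 and 15.0 on 144 and 114 fragments (1.016, 0.788 to 1.31). Both sites at Dnmt3b were within 1.5-fold. At Ctcf itself 2 of 4 WT regions were lost, with a median fold of 3.22, and both shared sites were within 1.5-fold, with folds of 8.38 in both lists at the one inside the gene (chr8:105661119-105661535).

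At promoters, regions with the motif were stronger and, with strength not matched, were lost less often in these counts. Regions whose summit lay in a promoter window with the motif were lost in 10 of 223 cases (4.48%, 2.45% to 8.06%; median WT fold 19.3), and those without in 251 of 1414 (17.8%, 15.8% to 19.8%; 10.5). Gained regions made up 3 of 218 SKO regions with the motif (1.38%, 0.469% to 3.97%) and 200 of 1385 without (14.4%, 12.7% to 16.4%). Within the weakest deciles the motif was rare in kept regions as well, in 2 of 70 windows under shared and 2 of 134 under lost WT summits, and in 5 of 118 under shared and 3 of 154 under gained SKO summits. In WT decile 2 the motif stood in 2 of 76 windows under shared and 5 of 72 under lost summits. In WT decile 3 the counts were 5 of 85 and 3 of 44. The order of all regions was thus not seen in WT deciles 2 and 3. It was kept in WT decile 4 (10 of 103 and 1 of 26) and WT decile 5 (9 of 142 and 0 of 7). In SKO deciles 2, 3, 4 and 5 the motif stood in 6 of 108, 6 of 95, 9 of 132 and 19 of 124 windows under shared summits. Under gained summits it stood in 0 of 46, 0 of 20, 0 of 6 and 0 of 1. The counts are small, and within each decile the Wilson intervals overlapped. The windows under WT summits held a median of 19 CpGs and all windows 7, with 20 under lost and 21 under gained summits.

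Among shared sites with the motif in the window, the motif centre lay a median of 17.5 bp from the WT summit, and within 50 bp in 76.2% of 210. By the count above, a motif CpG stood in the Wdr41, Itga8 and Mgat5b stretches, at sites lower in SKO. One also stood in the Nabp2 and Faap100 stretches, at sites higher in SKO. The motif centres of these stretches lay 97.5, 19.5, 83.5, 55.5 and 65.5 bp from the summit, in the order named. Whether CTCF binds at these motifs was not tested. Where the motif had a CpG, the median log2 fold ratio was -0.17 over 159 sites, with 13 higher and 33 lower. Where it had none, the median was 0.00 over 51 sites, with 6 higher and 5 lower. Loss had the other order, with 6 of 167 regions lost with a motif CpG (3.59%, 1.66% to 7.62%) and 4 of 56 without (7.14%, 2.81% to 16.98%), and the intervals overlap. The pileup medians were closer, at -0.07 and -0.06, and the background medians were 0.00 and -0.11. The shared sites with a motif CpG were also stronger, with a median WT fold of 21.4 against 16.6. Of the sites with a motif in a promoter window, that at Wdr41 (chr13:94975919-94976356) had the largest change in fold.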

How the data were processed

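CTCF ChIP and input from WT and SKO mouse embryonic stem cells (3 of each per genotype, 12 samples) entered as 2 deposited peak lists, 1 per genotype; the TKO list gave side-by-side values. Per the labels, the authors pooled replicates before calling peaks. Per the submitters' processing notes, the tools included MACS2 2.1.2, Bowtie2 2.3.4 and SAMtools 1.9 with the mm10 build; commands and filters on reads are not stated in these sources. The deposited fold enrichment is a ratio at the summit, and the deposited −log10 p and −log10 q come from the same caller.

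Python 3.11.15, numpy 2.4.6, pandas 2.3.3 and scipy 1.17.1 were used. Rows of equal interval were joined, keeping the summit of highest −log10 q. Pileup and background were solved from fold and −log10 p (Poisson upper tail); every WT and SKO row returned a whole pileup within a relative error of 0.0001. Overlap calling and this recovery were tested on simulated data. Shares carry 95% Wilson intervals and pileup ratios exact conditional (Clopper-Pearson) intervals; PCR duplicates are not independent molecules, so both cover counting error only. No test was possible, because each list is 1 pooled value.

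Named items follow a rule on the autosomes and X. It takes the 12 lost and 12 gained regions of highest fold, the 10 largest changes each way among sites with a pileup of at least 40 in 1 list, up to 3 genes per gene list, and 6 genes per kind of change. It also takes the deleted genes with Ctcf and H19, up to 4 promoter sites per class, and extreme windows. A region takes the name of the protein-coding gene around its summit, or of the nearest one within 100 kb. Not every item under the rule is reported here. Genes came from RefSeq, GRCm38.p6 (21887 protein-coding), and 3 list symbols were not matched. The match of the protocadherin list was corrected after values were seen. The members and lists were chosen with earlier results of these data known. Alternatives covered thresholds, overlap rules, scaling, bounds and windows.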

Additional observations from a re-analysis of the deposited data

How the results depend on the processing

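The pooled lists leave no replicate to leave out. No paired analysis was possible because each list pools its replicates and no result comes from a test. The count of lost regions ran from 11369 (−log10 q of at least 5) to 16471 (summits within 100 bp), within 1.5 times of 15571. Gained regions numbered 2131 at a −log10 q of at least 5, since fewer regions are counted. Sites higher in SKO numbered 2583 by pileup, 999 with a bound of 2 and 1337 past 1.5 in both fold and pileup, the last chosen after seeing the data; sites lower numbered 6422, 2772 and 4012. The median log2 ratio was -0.088 by pileup, was -0.098 where both lists had a −log10 q of at least 5, and stayed below 0 under the 4 alternatives run. Lost regions at gene ends made up 13.4% within 2.5 kb, 11.8% with all gene biotypes, and 5.97% with weaker regions (−log10 q under 5) left out, against 16.1%, 13.6% and 8.22% of all WT regions. Gained regions made up 25.3%, 21.4% and 13.05%, against 17.5%, 14.5% and 8.91% of all SKO regions. Wider windows and more genes hold more regions by construction; the cause of the other moves was not tested. Of the 60 values for gene lists with gene bodies alone or 50 kb either side, 39 stayed close to the reported value (medians within the binomial interval of the reported median, counts within 1.5 times) and 21 moved. The median changed sign for 4 lists: epiblast, mesoderm and neural genes (0.37), retrovirus silencers (0.09) and Hox genes (0.07) over gene bodies alone, and 2-cell-like genes (-0.01) with 50 kb either side. Lost regions have a median pileup of 17 fragments, so their counts carry a wide counting error.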
